A study of Mus musculus with 12 samples.

Results

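Major histocompatibility complex (MHC) class I molecules were followed here through 9 genes, namely 8 heavy chain genes (H2-K1, H2-D1, H2-Q2, H2-Q4, H2-Q7, H2-T22, H2-T23 and H2-M3) and B2m, which encodes the shared light chain β2-microglobulin. They were taken by gene name from a table of 29428 genes, and all 9 were among the 16127 genes that reached at least 0.5 TPM, a transcript level scaled for gene length and library total, in at least 3 libraries. H2-Q2 reached that level only through the treated STHdhQ7 libraries, the group in which it was highest. The study sequenced poly(A) RNA of 2 immortalized mouse striatal cell lines, STHdhQ7 with 7 glutamines in knock-in huntingtin (labelled normal) and STHdhQ111 with 111 glutamines (labelled HD, for Huntington's disease). The sample titles give the lines as STHdhQ7/Q7 and STHdhQ111/Q111, each homozygous. Both lines were grown at 33 °C and were either left untreated (Q7-C and Q111-C) or given 100 ng/mL murine interferon-gamma (IFNγ) together with 5 μg/mL lipopolysaccharide (LPS) over 24 h (groups Q7-T and Q111-T), with 3 libraries in each of the 4 groups. Each genotype was represented by a single cell line, so huntingtin genotype and other differences between the lines cannot be told apart, and the combined treatment does not separate IFNγ from LPS.

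The libraries held 57505990 to 96417834 estimated counts. In 3 groups 1 library stood apart from its partners, as seen in a chi-square per degree of freedom of 296 and 408 for Q7-C replicate 1, 655 and 680 for Q7-T replicate 2, and 187 and 166 for Q111-T replicate 2, against 18.3 to 52.5 for the remaining pairs. In these 3 libraries, short transcripts were relatively high and long transcripts relatively low. The median log2 difference from the other libraries of the group was 0.31, 0.39 and 0.18 for genes with transcripts of up to 1462 bases, and -0.44, -0.52 and -0.29 for those of at least 4358 bases. The part of transcript length in the results was not tested, and values without these libraries are given beside the results whose call changes. Of 4 neuronal markers with a row, the synaptic genes Snap25 and Syt1 stayed below 0.5 TPM in every library, whereas Map2 and Tubb3, which encode neuronal cytoskeletal proteins, were at 0.604 TPM or more and at 2.56 TPM or more in every library. Tubb3 was higher in treated cells, at 57.9 to 83.6 TPM in Q7-T against 16.2 to 17.8 TPM in Q7-C and at 23.1 to 26.6 TPM in Q111-T against 2.56 to 4.88 TPM in Q111-C. Map2 was lower in Q7-T (0.604 to 3.11 TPM) than in Q7-C (from 4.41 TPM) and overlapped between Q111-C and Q111-T. The sum of 5 mesenchymal markers was lower in treated cells, at 2611 to 3000 TPM in Q7-C and 1784 to 2092 TPM in Q7-T, and 3577 to 3699 TPM in Q111-C and 1461 to 1569 TPM in Q111-T. The sum of 4 astrocyte markers, of which Gfap and Aqp4 stayed below 0.5 TPM, was 1.04 to 1.77 TPM in STHdhQ7 cells, 8.65 to 10.7 TPM in Q111-C and 3.83 to 4.94 TPM in Q111-T, and that of 3 medium spiny neuron markers was at most 1.46 TPM, with its highest values in Q111-C. The leukocyte markers Ptprc, Itgam and Csf1r were also below 0.5 TPM throughout. Cd68, a lysosomal protein abundant in macrophages, ranged from 5.8 to 57.5 TPM and was highest in Q111-T. The summed TPM of the 4 macrophage markers with a row was 5.93 to 8.32 in Q7-C and 14.4 to 16.8 in Q111-C. In treated cells that sum was 8.81 to 15.2 TPM for Q7-T and 40.8 to 58 TPM for Q111-T, and the part of these marker shifts in the results was not tested. In bulk RNA, a change in the number of cells that carry a transcript and a change in RNA per cell cannot be told apart.

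Class I heavy chains bind peptides cut from the cell's own proteins and, paired with β2-microglobulin, carry them to the cell surface for inspection by CD8 T cells and natural killer cells. The classical molecules H2-K and H2-D present a broad range of peptides, whereas the nonclassical Qa, T-region and M-region molecules have narrower ligands or receptors. Neural cells show little class I at rest, and IFNγ is a textbook inducer that acts through IRF1 and the transactivator NLRC5. The 8 heavy chain genes lie on mouse chromosome 17 (GRCm38), from H2-K1 at chr17:33996017-34000347 on the minus strand, through H2-D1 (chr17:35262730-35267499, plus), H2-Q2 (chr17:35342242-35346762, plus), H2-Q4 (chr17:35379617-35385290, plus), H2-Q7 (chr17:35439155-35443773, plus), H2-T23 (chr17:36029773-36032855, minus) and H2-T22 (chr17:36037128-36042705, minus), to H2-M3 (chr17:37270220-37274484, plus). B2m lies apart from them at chr2:122147686-122153083 on the plus strand.

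Stretches upstream of the RefSeq starts of the members are shown because class I promoters are known for a κB site next to an interferon-stimulated response element (ISRE). They were read 5′ to 3′ on the gene's own strand from RefSeq promoter windows of 300 bases across each annotated start (GRCm38.p6), in which all 9 members were matched. The RefSeq start differs from the start of the gene row for some members, so that the stretches of H2-D1 and H2-T23 lie inside the gene coordinates given above and that of H2-Q2 crosses their start. Capitals mark the κB letters (GGG, any 2 bases, TT, any base, CC) and TTTCNNTT, the ISRE short core, or the full ISRE, which is that core followed directly by TC, on either strand.
H2-K1 (chr17:34000425-34000463, minus): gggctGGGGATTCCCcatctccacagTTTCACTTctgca
H2-D1 (chr17:35262918-35262956, plus): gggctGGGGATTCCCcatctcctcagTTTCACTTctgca
H2-Q4 (chr17:35379439-35379476, plus): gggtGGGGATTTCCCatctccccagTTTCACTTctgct
H2-Q7 (chr17:35439017-35439054, plus): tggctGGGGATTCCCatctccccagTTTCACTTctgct
B2m (chr2:122147545-122147575, plus): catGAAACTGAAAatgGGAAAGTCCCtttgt
H2-Q2 (chr17:35342201-35342248, plus): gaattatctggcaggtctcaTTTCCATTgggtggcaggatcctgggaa
H2-T22 (chr17:36042906-36042953, minus): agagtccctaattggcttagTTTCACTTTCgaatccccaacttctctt
H2-T23 (chr17:36032798-36032845, minus): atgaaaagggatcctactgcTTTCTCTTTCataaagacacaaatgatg
H2-M3 (chr17:37270113-37270160, plus): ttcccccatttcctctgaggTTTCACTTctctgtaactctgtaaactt

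H2-K1, H2-D1, H2-Q4, H2-Q7 and B2m held the κB letters beside the ISRE core, with both motifs on the opposite strand and in the reverse order in B2m, and 2 overlapping κB matches in H2-Q4. The κB letters occurred in 5 of 9 members and in 4.79% of all 32851 windows. The ISRE short core was present in 9 of 9 members and in 23.9% of all windows, and the full ISRE, which contains the core, in 3 of 9 members (H2-T22, H2-T23 and B2m) and in 3.44% of windows. TTCNNNGAA, the letters of the gamma-activated site, was found in 1 of 9 members (H2-M3) and in 8.3% of windows. CCAAT, read on both strands as the Y box, was in 9 of 9 members and 37.4% of windows, and in H2-Q2 its reverse complement ATTGG overlapped the ISRE core. These matches describe the letters of the windows only.

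Class I copies resemble each other, and reads from a shared stretch could have been assigned to any of them. In the coding transcripts of GENCODE M21, 43.9% of the 50-base windows of H2-T22 were also present in another gene on either strand, most of them in H2-T10 (37.5%). For H2-Q4 the share was 39.2%, in part through Gm11131, which overlaps it on the opposite strand. H2-Q7 shared 34.9%, chiefly with H2-Q5 (17.4%) and H2-Q6 (17%). The corresponding figures were 29.8% for H2-T23, 16.1% for H2-Q2, 13.9% for H2-D1 and 6.87% for H2-K1. H2-M3 (0.576%) and B2m (0%) were nearly or entirely unique at this length. For 100-base windows the shares were lower, between 0% for H2-K1, H2-M3 and B2m and 17.2% for H2-Q7. Values of H2-Q4, H2-Q7, H2-T22 and H2-T23 are therefore uncertain as values of single genes, and the summed copies are given below. The sums do not hold every partner. The heavy chain sum holds members only, without H2-T10, H2-Q5 or H2-Q6. The H2-Q and H2-T sums hold only rows with those names, without Gm11131. They thus still depend in part on how reads were assigned. A930015D03Rik overlaps H2-T22 and H2-T23 on the opposite strand and stood at 1.61 to 8.32 TPM, and Gm11131 at 0.0369 to 1.89 TPM. The library kit keeps strand, but whether counting used it was not stated in the sources used here. Reads were aligned to GRCm38, and those sources do not give the class I alleles of either line. Whether allele differences from that reference affected the values of a line was not tested.

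After IFNγ/LPS, the 8 members other than H2-Q2 rose in each line, by the edgeR quasi-likelihood test with Benjamini-Hochberg adjustment over all 16127 genes and a threshold of adjusted p 0.05 with at least a 2-fold change. Over all genes tested, 2.93% were called higher in Q7-T than in Q7-C and 8.28% in Q111-T than in Q111-C. H2-Q2 entered the test only through Q7-T, so its tests are not used and its values are described further on. Over the other 8 members the median log2 fold change was 3.56 for STHdhQ7 and 2.99 for STHdhQ111, against a median of 0.00 over all genes in both. Each of the 8 also passed when the 3 libraries that stood apart were left out together, where 3.24% and 9.67% of all genes were called higher. Between the untreated lines, 5 of these 8 members were higher in Q111-C (7.62% of all genes), and between the treated lines 2 were higher (13.3% of all genes) and 1 was lower (11.2% of all genes) in Q111-T. These comparisons share libraries, so their values are set side by side and are not independent of each other.

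**Figure D1:**
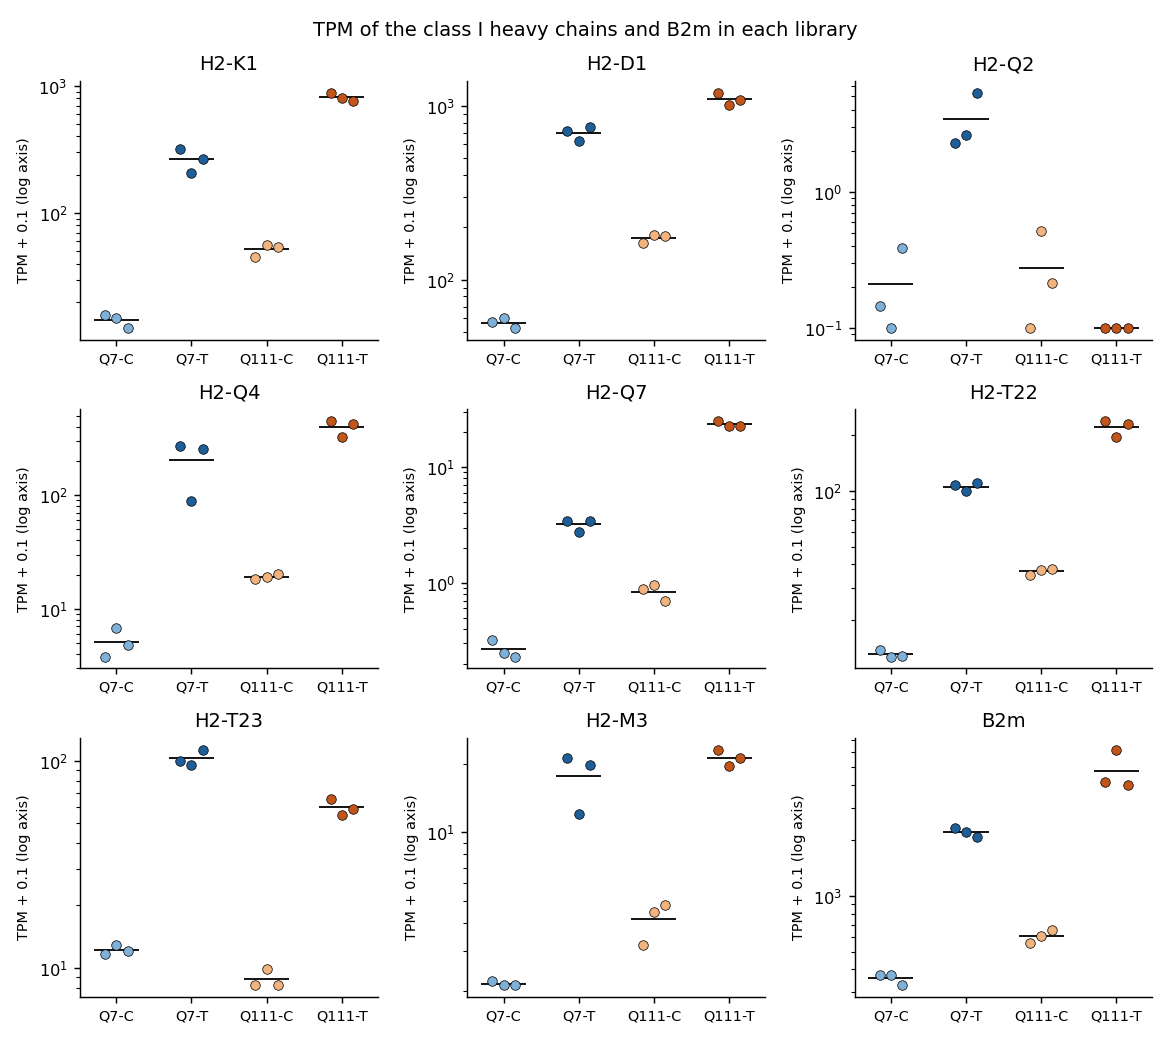
TPM of each member (plus 0.1, log axis) in the 12 libraries, by group, with points for single libraries and a bar for the mean of 3. The treated libraries of a line sit above its untreated libraries in every panel except H2-Q2, which was listed at 0 in all Q111-T libraries, and H2-T23 is the member whose Q111 libraries lie below their Q7 counterparts in both conditions.

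H2-K1, a classical heavy chain, had 15.8, 15 and 12.4 TPM in the Q7-C libraries and 318, 208 and 265 TPM in Q7-T. In Q111-C it had 44.9, 56.3 and 54.5 TPM, and in Q111-T 881, 807 and 757 TPM. The 4 groups did not overlap, and their order was Q7-C, Q111-C, Q7-T and Q111-T. H2-K1 rose by 4.34 ± 0.23 (log2 fold change ± SE, n = 3 per group, edgeR adjusted p = 4.02e-07) in STHdhQ7 cells and 4.08 ± 0.23 (adjusted p = 4.06e-07) in STHdhQ111 cells. The level was higher in STHdhQ111 cells before treatment, by 1.49 ± 0.21 (adjusted p = 0.000303), and after it, by 1.23 ± 0.21 (adjusted p = 0.000763). The responses of the lines differed by -0.26 ± 0.29 (STHdhQ111 minus STHdhQ7, adjusted p = 0.681), a difference that did not pass the test.

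H2-D1, the other classical heavy chain, was the most abundant heavy chain transcript in every library. It stood at 56.6, 60.3 and 52.5 TPM in Q7-C, and at 718, 626 and 756 TPM in Q7-T. The Q111-C libraries had 163, 181 and 177 TPM and the Q111-T libraries 1186, 1015 and 1073 TPM. H2-D1 rose by 3.82 ± 0.20 in STHdhQ7 cells (adjusted p = 3.98e-07) and by 2.75 ± 0.20 in STHdhQ111 cells (adjusted p = 2.24e-06). Untreated STHdhQ111 cells had more H2-D1 than untreated STHdhQ7 cells (log2 fold change 1.28 ± 0.19, adjusted p = 0.000401), whereas after treatment the difference was 0.21 ± 0.18 and did not pass (adjusted p = 0.384), although the TPM values of the treated groups did not overlap. The response was smaller in STHdhQ111 cells by a log2 difference of -1.07 ± 0.26 (adjusted p = 0.0344). In the interaction of line and treatment, 1 of the 8 members tested, H2-D1, was called, against 4.71% of all genes. The call for H2-D1 lay close to the thresholds on fold and on adjusted p, and it was lost in 15 of 23 alternative analyses. Over all 23 the adjusted p ranged from 0.000762 to 0.0873. With libraries left out in turn, the difference ranged from -1.24 to -0.90. The call held without Q7-C replicate 1 or Q7-T replicate 1 and was lost without any of the other libraries, at -0.90 without Q7-T replicate 2. It held, at -1.06 (adjusted p = 0.000762), without the 3 libraries that stood apart, where 9.85% of all genes were called in the interaction.

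H2-K1 and H2-D1 did not keep a fixed proportion. The ratio of H2-K1 to H2-D1 TPM was 0.255 ± 0.022 in Q7-C and 0.298 ± 0.0199 in Q111-C, and with treatment 0.375 ± 0.0595 (Q7-T) and 0.748 ± 0.0452 (Q111-T) (mean ± SD, n = 3 libraries each). The 3 Q111-T libraries (0.743, 0.795 and 0.705) lay above all others, the nearest being a Q7-T library at 0.443. Q111-T had 1.99 times the ratio of Q7-T (exact permutation p = 0.1, 2-sided, the smallest that 3 against 3 libraries allow).

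H2-Q4, which encodes the Qb-1 molecule, had the largest rise of the members that passed in STHdhQ7 cells. Its TPM values were 3.7, 6.73 and 4.69 in Q7-C and 269, 88.2 and 255 in Q7-T. In Q111-C they were 18.2, 19.1 and 20.1, and in Q111-T 448, 323 and 422. No groups overlapped, and Q7-T replicate 2 was far below the other Q7-T libraries. H2-Q4 rose by 5.44 ± 0.27 in STHdhQ7 cells (adjusted p = 2.25e-07) and by 4.47 ± 0.26 in STHdhQ111 cells (adjusted p = 4.54e-07). Untreated STHdhQ111 cells exceeded untreated STHdhQ7 cells by 1.62 ± 0.23 (adjusted p = 0.000326). Between treated cells the difference was 0.65 ± 0.22, with an adjusted p of 0.0394 but under 2-fold. The difference of responses was -0.98 ± 0.32 (adjusted p = 0.104) with all libraries. It was -1.22 without Q7-T replicate 2 and passed the test then, as it did at -1.07 (adjusted p = 0.00408) without the 3 libraries that stood apart.

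H2-Q7, a gene for the nonclassical molecule Qa-2, was scarce at rest, with 0.222, 0.145 and 0.13 TPM in untreated STHdhQ7 cells and 0.78, 0.848 and 0.59 TPM in Q111-C. It reached 3.31, 2.64 and 3.35 TPM in Q7-T and 24.8, 22.7 and 22.7 TPM in Q111-T. The Q111-T libraries were thus 7.55 ± 1.05 times the Q7-T libraries in TPM (ratio of means ± SD), the widest gap upward between the treated lines among the members. By edgeR the difference was 2.50 ± 0.28 (adjusted p = 4.91e-05) between treated cells and 1.78 ± 0.30 (adjusted p = 0.00114) between untreated cells. The untreated call was lost with limma on log2(TPM + 0.5) at 0.89 and on log2(TPM + 1) at 0.58, both under 2-fold. H2-Q7 rose by 4.35 ± 0.32 in STHdhQ7 cells (adjusted p = 4.47e-06) and by 5.07 ± 0.32 in STHdhQ111 cells (adjusted p = 9.32e-07). The responses differed by 0.72 ± 0.40, which did not pass on counts (adjusted p = 0.357) but passed with limma on log2(TPM + 0.5) at 1.84 (adjusted p = 0.000537), a scale on which the low untreated levels are compressed.

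H2-Q2 behaved unlike the other members. It had 0.0449, 0 and 0.288 TPM in untreated STHdhQ7 cells and 0, 0.413 and 0.113 TPM in untreated STHdhQ111 cells. The treated STHdhQ7 libraries had 2.19, 2.51 and 5.21 TPM. No count was assigned to it in any Q111-T library. Against a floor of 12 estimated counts per library (3 read pairs), H2-Q2 was at least 25.4-fold lower in Q111-T than in Q7-T. This is a description, since H2-Q2 passed the filter on low values only through Q7-T, the group in which it was high. The Q7-T libraries held 155, 211 and 576 estimated counts of H2-Q2, and the untreated libraries between 0 and 33. No fold is given for the response of STHdhQ111 cells, since Q111-C held 0, 33 and 11 estimated counts, close to the floor. The closest copy in sequence, H2-Q1, shares 12.9% of the 50-base windows of H2-Q2 and was present in both treated groups, at 16.4, 7.37 and 16.5 TPM in Q7-T and 12.1, 7.33 and 10.9 TPM in Q111-T.

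**Figure D2:**
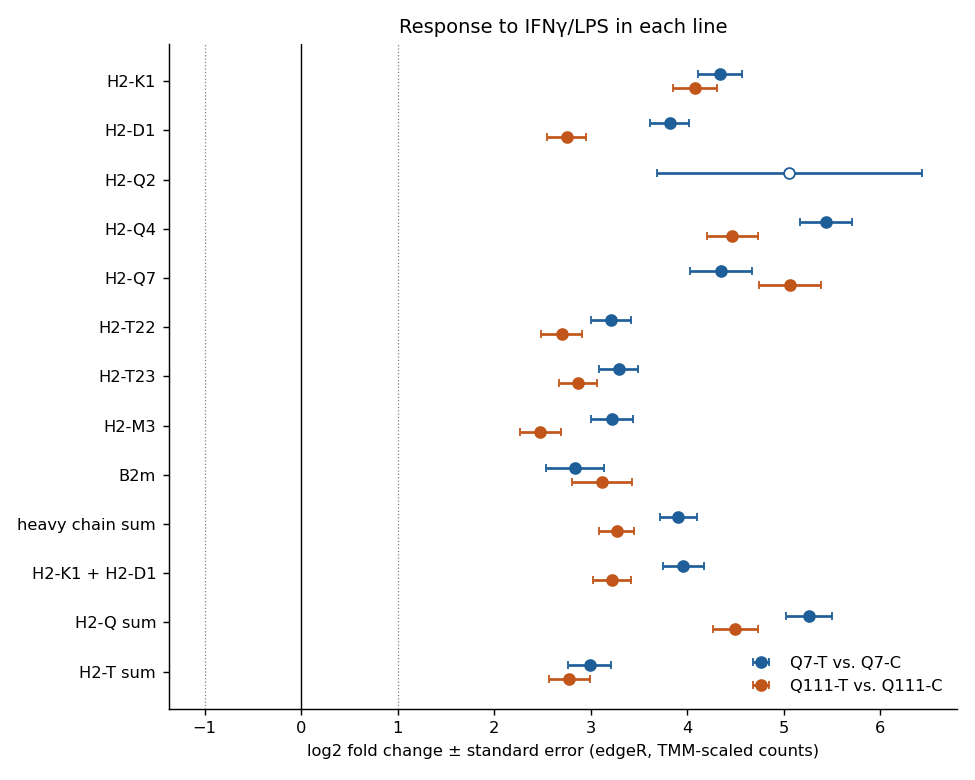
Log2 fold change ± standard error (edgeR) of each member and of sums of copies, treated against untreated, in STHdhQ7 cells (blue) and STHdhQ111 cells (orange). Filled points passed the threshold, open points did not and dotted lines mark 2-fold. H2-Q2 in STHdhQ111 cells is left out because its treated libraries held no counts. The H2-Q2 point of STHdhQ7 cells comes from a test that is not used. With all libraries, the H2-D1 points are the clearest separation between the lines among the well-counted members.

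H2-T22, a T-region heavy chain recognised by some γδ T cells, had 13.7, 12.6 and 12.7 TPM in Q7-C and 107, 99.4 and 110 TPM in Q7-T. The Q111-C libraries had 34.8, 37.2 and 37.9 TPM and the Q111-T libraries 238, 196 and 231 TPM. It rose by 3.21 ± 0.21 in STHdhQ7 cells (adjusted p = 1.87e-06) and by 2.70 ± 0.21 in STHdhQ111 cells (adjusted p = 4.2e-06). Its untreated level in STHdhQ111 cells exceeded that in STHdhQ7 cells by 1.15 ± 0.20 (adjusted p = 0.00138). Between treated cells its difference was 0.63 ± 0.20 (adjusted p = 0.0264), under 2-fold on TMM-scaled counts and just over it with limma on log2(TPM + 0.5), hereafter the TPM scale (1.07).

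H2-T23, which encodes Qa-1, the ligand of the CD94/NKG2A receptor of natural killer cells, was the member with lower values in STHdhQ111 cells in both conditions. It had 11.6, 12.7 and 12 TPM in Q7-C against 8.14, 9.8 and 8.17 TPM in Q111-C. After treatment it had 99.5, 95.1 and 113 TPM in Q7-T against 65.5, 54.6 and 58.2 TPM in Q111-T. The groups did not overlap in either condition. H2-T23 was lower in Q111-T by a log2 fold change of -1.23 ± 0.19 (adjusted p = 0.00042). On the TPM scale the difference was -0.78 (adjusted p = 0.00199), short of 2-fold. In untreated cells the log2 fold change was -0.81 ± 0.19, with an adjusted p of 0.00839 but under 2-fold. Its rise was 3.29 ± 0.20 (adjusted p = 1.03e-06) in STHdhQ7 cells and 2.87 ± 0.20 (adjusted p = 1.87e-06) in STHdhQ111 cells, and the difference of responses did not pass (-0.42 ± 0.26, adjusted p = 0.413).

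H2-T22 and H2-T23, which lie side by side on the minus strand, thus differed between the lines in opposite directions. The ratio of H2-T22 to H2-T23 TPM was 1.08 ± 0.0959 in Q7-C and 1.03 ± 0.0553 in Q7-T, and 4.23 ± 0.422 in Q111-C and 3.74 ± 0.208 in Q111-T. Treatment left the ratios of a line overlapping, while the lines did not overlap in either condition (exact permutation p = 0.1, the smallest possible). H2-T10, the copy closest to H2-T22, ran the other way, with 12.6, 11.4 and 9.4 TPM in untreated STHdhQ7 cells against 1.51, 2.37 and 1.68 TPM in Q111-C (log2 fold change -2.94 ± 0.31, adjusted p = 3.65e-05). It was also lower after treatment, at 45.6, 52 and 47.8 TPM in Q7-T and 26, 20.3 and 22.5 TPM in Q111-T (-1.56 ± 0.29, adjusted p = 0.00155). When all rows named H2-T were summed, the difference between the lines did not pass, with log2 fold changes of 0.04 ± 0.20 before (adjusted p = 0.921) and -0.17 ± 0.20 after treatment (adjusted p = 0.536), the latter turning to 0.21 on the TPM scale. The H2-T sum rose with treatment by 2.99 ± 0.22 in STHdhQ7 cells (adjusted p = 4e-06) and by 2.78 ± 0.21 in STHdhQ111 cells (adjusted p = 3.95e-06). Whether reads moved between H2-T22 and H2-T10 was not tested.

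H2-M3, which presents peptides that begin with formylated methionine, had 2.11, 2.03 and 2.03 TPM in Q7-C and 21.2, 11.9 and 19.7 TPM in Q7-T. In STHdhQ111 cells it had 3.11, 4.36 and 4.71 TPM untreated and 23, 19.4 and 21.1 TPM treated. It rose by 3.22 ± 0.22 (adjusted p = 2.5e-06) in STHdhQ7 cells and by 2.48 ± 0.21 (adjusted p = 9.49e-06) in STHdhQ111 cells. The treated groups overlapped, with a log2 fold change of -0.11 ± 0.20 (adjusted p = 0.703) that turned to 0.30 on the TPM scale. The untreated difference was 0.64 ± 0.21 (adjusted p = 0.0468), under 2-fold.

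B2m was the most abundant member throughout. Untreated STHdhQ7 cells had 373, 373 and 329 TPM and treated ones 2342, 2221 and 2086 TPM. Untreated STHdhQ111 cells had 555, 605 and 652 TPM and treated ones 4129, 6199 and 4002 TPM, and no groups overlapped. The highest value came from Q111-T replicate 2, a library in which short transcripts were relatively high. The longest annotated B2m transcript, of 860 bases, is the shortest among the members. Short transcripts were also relatively high in Q7-T replicate 2, which had the middle B2m value of its group (2221 TPM). The same held for Q7-C replicate 1, which was level with replicate 2 (373 TPM). The part of transcript length in the B2m values was not tested. B2m rose by 2.84 ± 0.30 in STHdhQ7 cells (adjusted p = 0.000107) and by 3.12 ± 0.31 in STHdhQ111 cells (adjusted p = 2.54e-05), or by 2.74 without Q111-T replicate 2. Neither comparison between the lines passed on TMM-scaled counts, with 0.41 ± 0.28 untreated (adjusted p = 0.364) and 0.68 ± 0.28 treated (adjusted p = 0.0771). Without Q111-T replicate 2 the treated difference was 0.35 (adjusted p = 0.297), and without the 3 libraries that stood apart it was 0.66 (adjusted p = 0.000322), under 2-fold. With all libraries the treated difference passed on the TPM scale at 1.08 (adjusted p = 0.000959).

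The lines were compared on 2 scales, which placed the median gene differently. On TMM-scaled counts, the median log2 fold change over all genes was -0.02 between untreated and -0.03 between treated lines. In TPM it was 0.27 and 0.34, so TPM values of STHdhQ111 cells ran higher over genes at large. Under limma on log2(TPM + 0.5), H2-Q4, H2-T22 and B2m passed the 2-fold threshold between treated lines and H2-T23 did not. The genes called higher and lower in Q111-T than in Q7-T numbered 2145 and 1814 by edgeR on TMM-scaled counts, and 2929 and 776 by limma on log2(TPM + 0.5), an analysis that differs in both scale and test. Between untreated lines the corresponding numbers were 1229 and 1227, and 1489 and 766.

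**Figure D3:**
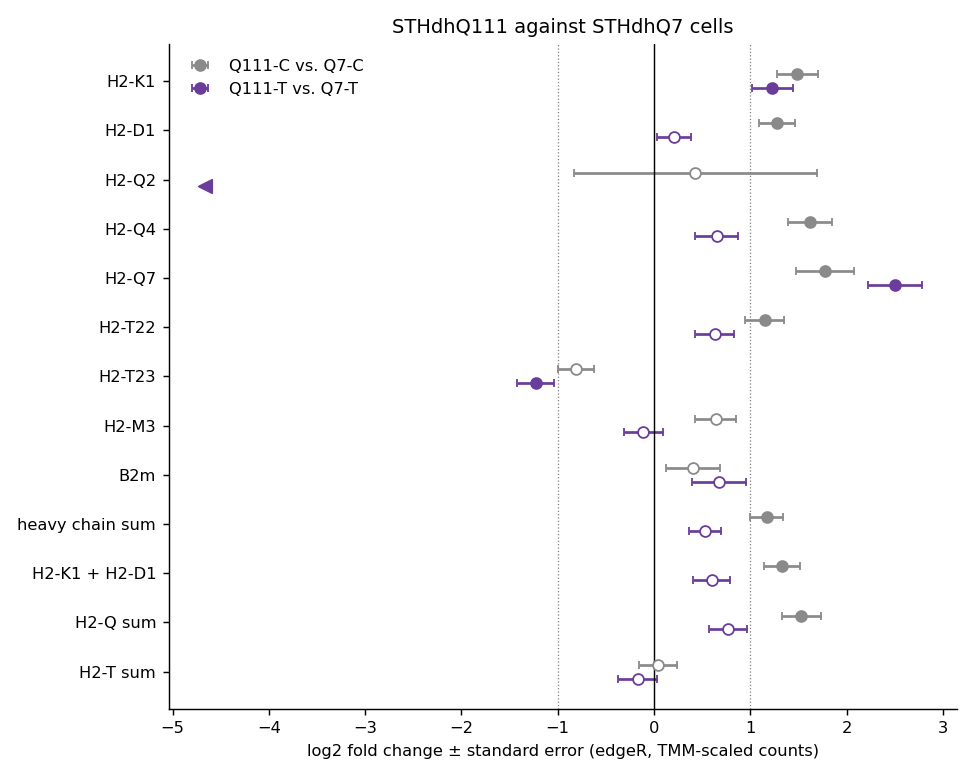
Log2 fold change ± standard error (edgeR, TMM-scaled counts) of STHdhQ111 over STHdhQ7 cells for each member and for sums of copies, untreated (grey) and treated (purple). Filled points passed the threshold, dotted lines mark 2-fold and the triangle marks the bound for H2-Q2. The untreated H2-Q2 point comes from a test that is not used. H2-K1 and H2-Q7 lie beyond 2-fold in both conditions, and H2-T23 is on the lower side in both.

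Summed over the 8 heavy chain genes, the level was 103 ± 6.35 TPM in untreated STHdhQ7 cells, 295 ± 19.1 TPM in Q111-C, and after treatment 1400 ± 231 TPM (Q7-T) and 2630 ± 218 TPM (Q111-T) (mean ± SD, n = 3). The sum rose by 3.91 ± 0.19 (log2, adjusted p = 2.01e-07) in STHdhQ7 cells and by 3.27 ± 0.18 (adjusted p = 4e-07) in STHdhQ111 cells. The sum in Q111-C exceeded that in Q7-C by 1.17 ± 0.17 (adjusted p = 0.000407). Between treated lines the difference was 0.53 ± 0.17 (adjusted p = 0.028), under 2-fold, and the difference of responses did not pass (-0.64 ± 0.24, adjusted p = 0.159). Without the 3 libraries that stood apart that difference was -0.71 with an adjusted p of 0.00394, still under 2-fold. All rows named H2-Q together rose by 5.26 ± 0.24 (adjusted p = 1.96e-07) and 4.50 ± 0.23 (adjusted p = 2.43e-07), more in value than H2-K1 and H2-D1 together (3.96 ± 0.21, adjusted p = 3.46e-07, and 3.22 ± 0.20, adjusted p = 8.62e-07) or the H2-T sum.

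The make-up of the heavy chain sum was compared between groups in 32 exact permutation tests of shares, in which 3 against 3 libraries cannot give a p below 0.1. H2-D1 made up 54.6 ± 0.394% of the summed TPM in Q7-C and 50.5 ± 4.37% in Q7-T, and 58.9 ± 0.729% in Q111-C and 41.5 ± 0.133% in Q111-T. H2-K1 made up 13.9 ± 1.21%, 18.8 ± 1.7%, 17.5 ± 0.969% and 31 ± 1.93% in the same order, and its shares in Q7-T and Q111-T did not overlap (exact permutation p = 0.1). H2-Q4 went from 4.85 ± 1.29% in Q7-C to 14 ± 5.4% in Q7-T, and from 6.49 ± 0.257% in Q111-C to 15.1 ± 1.62% in Q111-T, and the treated lines overlapped (exact permutation p = 1). The share of H2-T23 was lower in STHdhQ111 cells in both conditions, at 2.95 ± 0.243% in Q111-C against 11.7 ± 0.625% in Q7-C, and 2.26 ± 0.0239% in Q111-T against 7.42 ± 0.962% in Q7-T (exact permutation p = 0.1 for each).

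Heavy chain transcripts stayed below B2m transcripts in every library. The ratio of summed heavy chain TPM to B2m TPM was 0.278, 0.293 and 0.294 in Q7-C and 0.657, 0.511 and 0.732 in Q7-T, a 2.2-fold higher mean. In STHdhQ111 cells it was 0.492, 0.51 and 0.466 untreated and 0.694, 0.393 and 0.646 treated, and these groups overlapped (ratio of means 1.18, exact permutation p = 0.4). The low treated value was that of Q111-T replicate 2, and without it the ratio of means was 1.37. Untreated STHdhQ111 cells had 1.7 times the ratio of untreated STHdhQ7 cells (exact permutation p = 0.1). The treated lines overlapped, with a ratio of means of 0.912 (Q111-T over Q7-T, exact permutation p = 0.6), or 1.06 without Q111-T replicate 2.

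**Figure D4:**
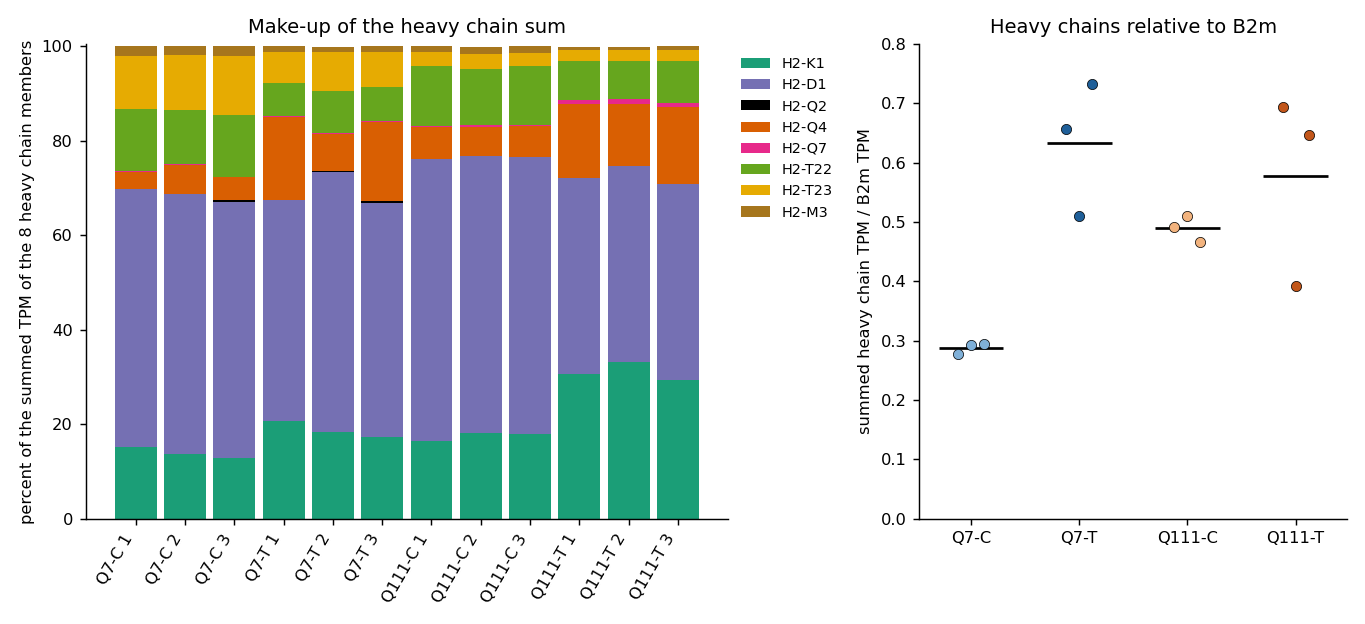
Left, percent of the summed TPM of the 8 heavy chain members contributed by each, per library, and right, the ratio of that sum to B2m TPM per library with bars for the mean of 3. H2-K1 takes its largest share in Q111-T, at 31 ± 1.93%, and the ratio to B2m is lowest in Q7-C, between 0.278 and 0.294.

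Among 18 further class I and class I-like rows, 13 were tested and 8 were called higher after treatment in each line (2.93% of all genes in STHdhQ7 and 8.28% in STHdhQ111 cells). Without the 3 libraries that stood apart the numbers were 7 and 8 (3.24% and 9.67% of all genes). Median log2 fold changes of those tested were 1.90 in STHdhQ7 and 2.57 in STHdhQ111 cells. H2-Q6, which shares sequence with H2-Q7, had 8.91, 6.75 and 8.72 TPM in Q7-T and 72, 52.6 and 64.7 TPM in Q111-T (2.53 ± 0.59 between treated lines, adjusted p = 0.00597). H2-Q5 had 0.884, 1.04 and 1.48 TPM in Q7-T and 11.4, 8.55 and 10 TPM in Q111-T (2.68 ± 0.74, adjusted p = 0.0184), and it was at least 6.88-fold higher in Q7-T than in Q7-C, where no count was assigned. H2-K2, next to H2-K1, had 1.92, 1.3 and 1.52 TPM in Q7-T and 20.2, 17.8 and 16.8 TPM in Q111-T (3.12 ± 0.42, adjusted p = 0.000174). H2-Q5, H2-Q6 and H2-Q7, which share sequence, were all higher in Q111-T, while H2-Q1 was lower in value (-0.77 ± 0.18, adjusted p = 0.00714, under 2-fold). Gm11127, a row chosen after its values were seen because it shares 5.4% of the H2-T22 windows, had 46.2, 23.3 and 46.2 TPM in Q7-T and 0.376, 0.458 and 0.819 TPM in Q111-T. Of class I-like genes encoded elsewhere, Procr, the endothelial protein C receptor, was higher in STHdhQ111 cells by 2.76 ± 0.21 untreated (adjusted p = 3.14e-06) and 3.67 ± 0.22 treated (adjusted p = 5.24e-07). Fcgrt, which encodes the neonatal Fc receptor, did not pass in either response. It was higher in value in STHdhQ111 cells, by 0.89 ± 0.28 untreated (adjusted p = 0.0421) and 0.86 ± 0.28 treated (adjusted p = 0.0329), both under 2-fold. Without the 3 libraries that stood apart, both differences between the lines passed, at 1.23 and 1.20.

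**Figure D5:**
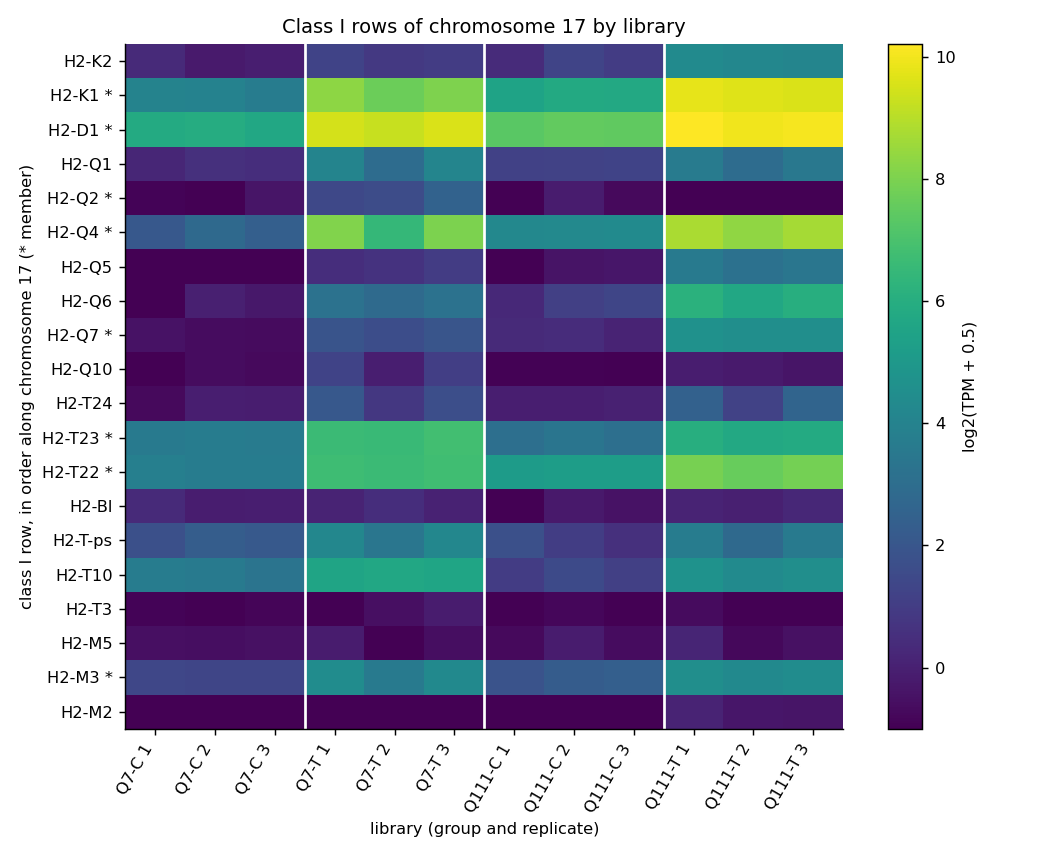
Log2(TPM + 0.5) of the class I rows of chromosome 17 in each library, with rows in gene order, columns by group and replicate, and members marked with an asterisk. H2-Q5, H2-Q6, H2-Q7 and H2-K2 are brightest in Q111-T, whereas H2-T10 and H2-T23 are brighter in Q7-T than in Q111-T and H2-Q2 is dark in Q111-T.

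Class I molecules depend on a supply of peptides. Of 13 genes for peptide generation, transport and loading, 10 were called higher after treatment in each line (2.93% and 8.28% of all genes), with median log2 fold changes of 3.30 and 2.19. Calr, Canx and Pdia3, general chaperones of the endoplasmic reticulum, were the 3 that were not called in either. Tap1, a subunit of the peptide transporter, rose by 5.41 ± 0.24 (adjusted p = 2.07e-07) and 4.79 ± 0.24 (adjusted p = 2.53e-07). Its partner Tap2 had 71.5, 23.4 and 65.8 TPM in Q7-T and 53.4, 34.6 and 49.1 TPM in Q111-T, and 1.05, 1.11 and 1.53 TPM in Q7-C against 5.22, 7.69 and 6.37 TPM in Q111-C. The Tap2 response was smaller in STHdhQ111 cells (-2.61 ± 0.33, adjusted p = 0.00119), as was that of Psmb8, a catalytic subunit of the immunoproteasome (-2.74 ± 0.56, adjusted p = 0.0145). Between untreated lines, 6 of the 13 were higher in Q111-C (7.62% of all genes). Without the 3 libraries that stood apart, Tapbp (1.08) and Psmb10 (1.22) passed there too (8.78% of all genes). Between treated lines none was called higher (13.3% of all genes) and 1 of 13, Psmb8, was called lower (11.2% of all genes), at -1.33 ± 0.39 (adjusted p = 0.0186), but under 2-fold, at -0.76, without those 3 libraries. Their omission left the difference of responses at -2.74 for Tap2 (adjusted p = 6.51e-05) and -2.38 for Psmb8 (adjusted p = 0.00165), and brought Erap1 (-1.03, adjusted p = 0.00327), Psmb10 (-1.24, adjusted p = 0.000594) and Psme2 (-1.74, adjusted p = 0.000588) past the threshold, in a setting where the genes called in the interaction went from 4.71% to 9.85% of all genes. Tapbp (tapasin), which holds heavy chains at the transporter, had 59.1 to 67.7 TPM in Q7-C and 436 to 477 TPM in Q7-T, and 140 to 157 TPM in Q111-C and 544 to 616 TPM in Q111-T.

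Of 8 genes for regulators of class I transcription and the IFNγ receptor, 2 were called higher in STHdhQ7 cells after treatment (Nlrc5 and Irf1) and 3 in STHdhQ111 cells (Nlrc5, Irf1 and Irf2), against 2.93% and 8.28% of all genes. Nlrc5, the class I transactivator, had 34.1, 8.54 and 35.8 TPM in Q7-T and 88, 46.7 and 86.7 TPM in Q111-T, with the lowest value of each group in the library that stood apart. Nlrc5 was higher in STHdhQ111 cells both untreated (1.82 ± 0.37, adjusted p = 0.00411) and treated (1.19 ± 0.36, adjusted p = 0.0223), and both calls held without the 3 libraries that stood apart (1.72 and 1.10). Irf2, an interferon regulatory factor known to bind the same element as Irf1, responded more in STHdhQ111 cells (1.47 ± 0.33, adjusted p = 0.0238). Ifngr2, a chain of the IFNγ receptor, was higher in STHdhQ111 cells by 1.01 ± 0.14 (adjusted p = 0.000227) untreated and 1.20 ± 0.14 (adjusted p = 5.3e-05) treated, the former under 2-fold at 0.97 without those libraries. Ifngr1, the other chain, was lower in value, by -0.49 ± 0.14 untreated (adjusted p = 0.0249, under 2-fold) and -0.37 ± 0.14 treated (adjusted p = 0.055). Rfx5, Rfxap and Rfxank, the subunits of the X-box factor that Nlrc5 works with, were not called in any comparison with all libraries, and without those 3 libraries Rfx5 rose in STHdhQ111 cells (1.02, adjusted p = 0.000336).

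The genes whose log2(TPM + 0.5) ran most alike a member over the 12 libraries included Irf1 and Tapbp, both on the lists above. The highest Pearson r was 0.995 with Ube2l6 for H2-K1, 0.997 with Tapbp for H2-D1, 0.998 with Irf1 for H2-Q4, 0.994 with Gadd45b for H2-Q7 and 0.993 with Xaf1 for H2-T22. For H2-T23 it was 0.992 with 4933412E12Rik, for H2-M3 0.996 with Serpinb1a, for B2m 0.989 with Chil1 and for H2-Q2 0.958 with Orm2. These values are a description, since all points share the treatment, the line and the libraries.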

How the data were processed

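Poly(A) RNA of 12 libraries was sequenced in pairs of reads. According to the methods and labels, the authors trimmed reads with Cutadapt, checked them with FastQC, aligned them to GRCm38 with HISAT2, assembled and merged transcripts and quantified them with StringTie. The deposited table gives TPM and estimated counts per gene. The TPM of its rows summed to 688352 to 719623 per library. The deposited estimated counts were rounded and tested in edgeR 4.0.16 (R 4.3.3) with TMM scaling and the quasi-likelihood test, in a single fit of 4 group means. Genes needed at least 0.5 TPM in at least 3 libraries. Calls needed a Benjamini-Hochberg adjusted p under 0.05 over all 16127 genes and at least a 2-fold change. Standard errors were the log2 fold change divided by the square root of the test's F value. The interaction was the response of STHdhQ111 cells minus that of STHdhQ7 cells. Multiples of 4 among the estimated counts were 1.327 to 1.631 times as frequent as neighbouring even numbers, so 4 counts were taken as 1 read pair, and a floor of 3 read pairs as 12 counts.

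The study calls the libraries of a group biological replicates, and the sources used here do not say whether they were separate cultures. The p-values measure the spread between these libraries. Alternatives were no filter, a filter of 1 TPM, DESeq2 1.42.0, RLE and upper-quartile scaling, limma 3.58.1 on log2(TPM + 0.5), with pseudocounts of 0.1 and 1, counts divided by 4, a fit of the compared groups alone, the replicate number as a block, each library left out in turn, and, chosen after seeing the data, the 3 libraries that stand apart left out together. The scripts were tested on simulated data. Named genes were the members, the genes of 3 lists (peptide loading, regulators and other class I genes) and the 3 genes most alike each member, of which the highest is given. Cell type markers and some rows that overlap a member or share its sequence were named too. A further gene chosen as a regulator is not reported here. The members and lists were chosen with earlier results of these data known. Shared sequence was counted in GENCODE M21 coding transcripts, an analysis added after seeing the data. The end of H2-T22 differs between the table's gene model and GENCODE M21 (36042705 and 36042747). Protein sequences were not analysed here.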

Additional observations from a re-analysis of the deposited data

Results flagged for a closer look

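The response of H2-D1 to IFNγ/LPS differed between the lines, with a log2 difference of -1.07 ± 0.26 (STHdhQ111 minus STHdhQ7) that passed the test of the interaction by edgeR (adjusted p = 0.0344). The call was lost in 15 of 23 alternatives. It was lost with the replicate block (-1.07, adjusted p = 0.0569), with no filter on low values (-1.06, adjusted p = 0.0568) and in 10 of the 12 analyses that left out a library. Over all 23 alternatives the adjusted p ranged from 0.000762 to 0.0873.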

How the results depend on the processing

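H2-Q2, whose tests are not used, is left out of these counts. Of 40 pairs of a member and a comparison, 30 kept direction and call in all 24 alternatives (23 for the interaction), 8 changed call without changing direction and 2 changed direction in at least 1 alternative. The members called in the interaction numbered 1 with all libraries (4.71% of all genes), 0 with no filter on low values (2.17%), 0 with the replicate block (3.88%), 2 without the 3 libraries that stand apart (H2-Q4 added, 9.85%), and 0 to 1 when libraries were left out in turn (3.17% to 6.19%). Same-numbered libraries did not stand out as pairs (correlations of deviations from -0.60 to 0.43, with 5 of 12 same-numbered pairs correlating best with each other). The deviations include the 3 libraries that stand apart, so they cannot show whether cultures were paired. The block changed no call of a member outside the interaction. With H2-K1 and H2-D1 alone, the ratio to B2m in Q111-C over Q7-C was 1.89 rather than 1.7. Direction changed for H2-M3 in Q111-T against Q7-T under limma on TPM (0.30 with pseudocounts of 0.5 and 0.1, 0.29 with 1), and for the H2-T sum there (0.21 with each pseudocount, 0.11 without the 3 libraries that stand apart, and -0.30 to 0.07 over the libraries left out in turn). With libraries left out in turn, it also changed for the B2m interaction (-0.09 without Q111-T replicate 2, to 0.55), for the H2-T sum in Q111-C against Q7-C (-0.05 without Q7-C replicate 3, to 0.24), and for the H2-T sum in the interaction (-0.41 to 0.02) and in Q111-T against Q7-T (0.07) without Q7-T replicate 2. The cause of these changes was not tested. Depth limits H2-Q2 and the untreated H2-Q7, with 24 to 128 estimated counts per untreated library for the latter.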
